A study of Mus musculus with 12 samples.

Results

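The 9 genes Sox2, Sox9, Pax6, Nfia, Nfib, Olig2, Prom1, Fabp7 and Lhx2 were followed in cultured mouse astrocytes that had been placed on brain sections of a mouse model of Alzheimer's disease. They were taken by name, and all 9 of 9 were present on the arrays, with 26 probe sets among the 45037 tested; averaging the probe sets of a gene gave 9 of the 18193 genes tested. No probe set was dropped for a low value, so every member stayed in every comparison. All but Prom1 and Fabp7 encode transcription factors.

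SOX2 and SOX9 are HMG-box transcription factors of neural stem cells, and SOX9 takes part in the switch of progenitors to making glia and remains on in mature astrocytes. NFIA and NFIB, nuclear factor I proteins, act together with SOX9 at the onset of gliogenesis. PAX6 and LHX2 are homeodomain factors that pattern the forebrain and keep radial glia as progenitors, and OLIG2 is a basic helix-loop-helix factor of the oligodendrocyte lineage and of cycling glial progenitors. Prom1 encodes prominin 1 (CD133), a surface glycoprotein of neural stem cells, and Fabp7 the brain lipid binding protein of radial glia and young astrocytes.

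The 4 groups held 3 arrays each. Adult astrocytes, from mice aged 6 to 8 weeks, spent 22 h either on sections of APdE9 brain (adult APdE9) or on sections of wild-type littermate brain (adult WT). Neonatal astrocytes came from mice labelled as 3 d old (the protocol text gives 2 days) and spent the same time on APdE9 sections (neonatal APdE9) or on wild-type sections (neonatal WT). In all 4 groups the astrocytes were from eGFP-expressing C57Bl/6j mice and carried no disease transgene, so the genotype contrast lies in the section and not in the measured cells. The APdE9 mouse carries a chimeric mouse/human APPSwe and a human PS1-dE9 transgene, each under the mouse prion protein promoter. The eGFP cells were freed with trypsin, picked by suction, and pooled over 3 samples before RNA was isolated, so an array is a pool, and the p-values reflect pool-to-pool spread alone. Percoll, DMEM/F12 medium and the G5 supplement were used for adult cells; neonatal cells had DMEM and neither Percoll nor G5, so isolation, medium and age cannot be told apart in the age comparisons.

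The deposited values are RMA expression values on a log2 scale from which each probe set's median over the 12 arrays had been taken: all 45095 complete probe sets had a median of 0 within 1e-06. A value therefore says how far an array lay from that gene's own median. It gives no level, no order between genes and no check of the labelled cell type against the absolute level of its markers. Array medians ran between -0.039 and 0.034. The first principal component held 66.5% of the variance over all genes and set every adult array apart from every neonatal array, and the second held 13.4%. In pooled cells, fewer cells of a type and less RNA per cell cannot be told apart.

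In adult astrocytes, 5 of the 9 genes were higher on APdE9 than on wild-type sections: Olig2 (2.88-fold), Fabp7 (2.19-fold), Lhx2 (1.87-fold), Sox2 (1.64-fold) and Sox9 (1.53-fold). None of the 9 passed the test as lower, and Pax6, Nfia, Nfib and Prom1 did not pass it in either direction. In neonatal astrocytes only Lhx2 passed it, and there it was lower on APdE9 sections (1.42-fold). A gene was counted as changed where limma's moderated test across all 18193 genes gave an adjusted p under 0.05; by that rule 8.26% of all genes were higher and 9.4% lower in the adult comparison, and 1.21% were higher and 2.55% lower in the neonatal comparison. The median log2 difference over the 9 genes was 0.61 in adult cells, beside 0.05 over all genes, and -0.19 in neonatal cells, beside 0.00 over all genes.

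**Figure D1:**
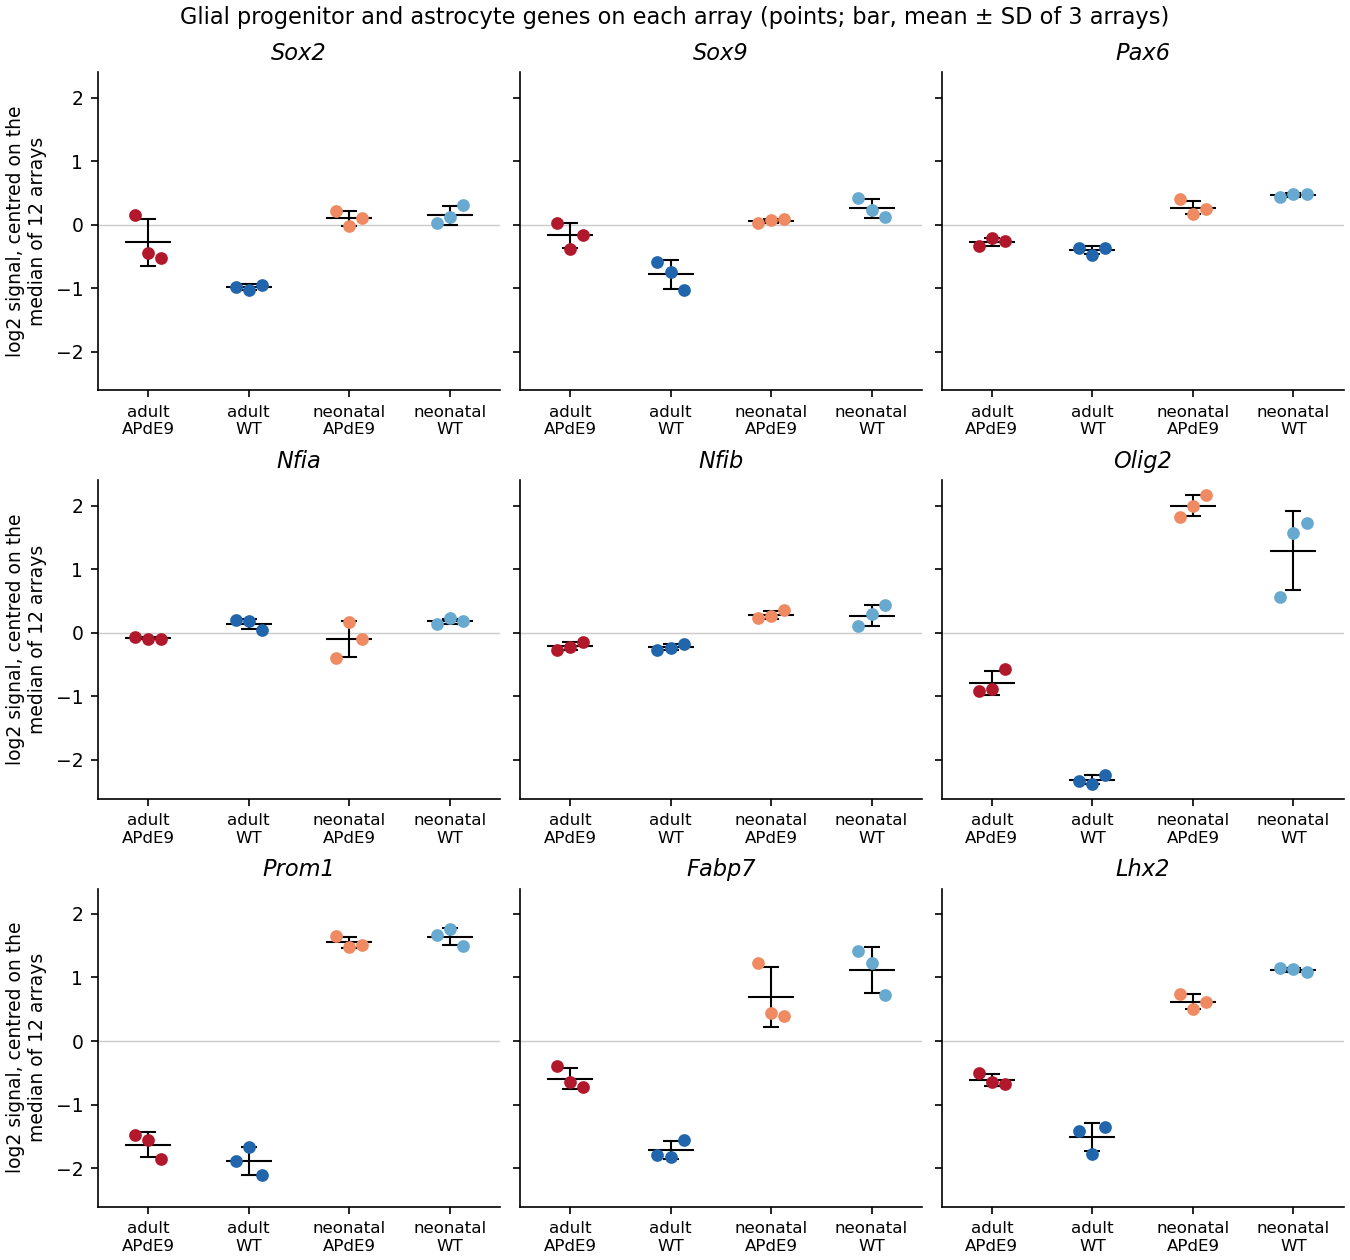
Centred log2 expression of the 9 genes on the 12 arrays (y axis, log2 units from the gene's median over all arrays; points are arrays, bars the group means ± SD, n = 3), with groups ordered adult APdE9, adult WT, neonatal APdE9 and neonatal WT. Olig2, Prom1, Fabp7 and Lhx2 show the widest gaps between adult and neonatal cells, and Olig2, Fabp7, Lhx2, Sox2 and Sox9 stand higher in adult APdE9 than in adult WT.

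Among the SOX genes, Sox2 lay at 0.15, -0.44 and -0.53 in adult APdE9 and at -0.98, -1.03 and -0.95 in adult WT. In neonatal cells it lay at 0.22, -0.02 and 0.11 on APdE9 sections and at 0.02, 0.12 and 0.31 on WT sections. The adult groups did not overlap, with the first adult APdE9 array above the other 2, while the neonatal groups did overlap. Sox2 was thus higher on APdE9 sections by 0.71 ± 0.15 (log2 difference ± SE, n = 3 each, limma adjusted p = 0.00616) in adult cells, against -0.05 ± 0.15 (limma adjusted p = 0.96) in neonatal cells.

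Sox9 lay at 0.02, -0.38 and -0.16 in adult APdE9 and at -0.58, -0.74 and -1.03 in adult WT. It lay at 0.03, 0.07 and 0.09 in neonatal APdE9 and at 0.42, 0.23 and 0.12 in neonatal WT. Every adult APdE9 array was above every adult WT array, and every neonatal APdE9 array was narrowly below every neonatal WT array. The log2 difference was 0.61 ± 0.13 in adult cells (limma adjusted p = 0.00576), which passed the test, and -0.19 ± 0.13 in neonatal cells (limma adjusted p = 0.594), which did not. The 3 Sox9 probe sets differed in size, with adult section differences of 0.24 to 0.80, and 2 of the 3 passed the test on their own, where 5.73% of all probe sets were higher.

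Of the homeodomain genes, Lhx2 lay at -0.51, -0.65 and -0.68 in adult APdE9, against -1.42, -1.77 and -1.36 in adult WT. In neonatal cells the order was the opposite, with 0.74, 0.51 and 0.62 in APdE9 and 1.15, 1.13 and 1.09 in WT. Neither pair of groups overlapped. Lhx2 was higher by 0.90 ± 0.11 on APdE9 sections in adult cells (limma adjusted p = 0.000116) and lower by a log2 difference of -0.50 ± 0.11 in neonatal cells (limma adjusted p = 0.024). The neonatal call was lost without neonatal WT replicate 1, 2 or 3 (adjusted p = 0.056, 0.0966 and 0.0564) and without neonatal APdE9 replicate 2 or 3 (adjusted p = 0.0964 and 0.0655), with limma log2 differences between -0.52 and -0.45, and under quantile normalization (adjusted p = 0.0517).

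Pax6 averaged -0.27 ± 0.06 in adult APdE9 and -0.40 ± 0.06 in adult WT (SD, n = 3 each). In neonatal cells it averaged 0.27 ± 0.11 in APdE9 and 0.47 ± 0.03 in WT. The log2 section differences of 0.13 (95% interval -0.04 to 0.30) in adult cells and -0.20 (95% interval -0.37 to -0.03) in neonatal cells did not pass the adjusted test (limma adjusted p = 0.284 and 0.235). The 5 Pax6 probe sets ranged from -0.09 to 0.34 in adult and from -0.45 to 0.04 in neonatal cells, and none passed on its own.

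Olig2 lay at -0.91, -0.88 and -0.57 in adult APdE9 and at -2.33, -2.37 and -2.24 in adult WT, which left a gap of 1.32 between the groups. In neonatal cells it lay at 1.82, 2.00 and 2.17 in APdE9 and at 0.57, 1.57 and 1.72 in WT. The first neonatal WT array stood well below the other 2 of its group, and the neonatal groups were 0.11 apart. Olig2 was higher on APdE9 sections by 1.53 ± 0.23 in adult cells (limma adjusted p = 0.000695). In neonatal cells the log2 difference was 0.71 ± 0.23 (limma adjusted p = 0.142), which did not pass the test. With the replicate number as a block it did pass (limma adjusted p = 0.0385). The sample labels state no pairing of the arrays, so that call rests on an assumed block.

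The nuclear factor I genes did not pass in either section comparison. Nfia averaged -0.08 ± 0.02 in adult APdE9 and 0.14 ± 0.08 in adult WT, and -0.10 ± 0.28 in neonatal APdE9 and 0.18 ± 0.04 in neonatal WT (SD, n = 3 each). Its log2 section differences, -0.22 (95% interval -0.47 to 0.02) in adult and -0.29 (95% interval -0.54 to -0.04) in neonatal cells, did not pass the test (limma adjusted p = 0.21 and 0.246). Without neonatal APdE9 replicate 2 the neonatal difference was -0.42 and passed narrowly (limma adjusted p = 0.0494). Every adult APdE9 array lay below every adult WT array for Nfia, with a gap of 0.11. Where its most variable probe set stood for the gene, the adult section difference was -1.07 and passed (limma adjusted p = 0.00666). Nfib averaged -0.21 ± 0.06 in adult APdE9 and -0.22 ± 0.05 in adult WT, and 0.28 ± 0.07 in neonatal APdE9 and 0.27 ± 0.17 in neonatal WT. The Nfib section difference was 0.01 at both ages, with 95% intervals of -0.18 to 0.21 in adult and -0.18 to 0.20 in neonatal cells (limma adjusted p = 0.949 and 0.989).

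The gene products typical of radial glia behaved differently from each other. Fabp7 lay at -0.40, -0.65 and -0.72 in adult APdE9 and at -1.79, -1.82 and -1.55 in adult WT, with no overlap. In neonatal cells it lay at 1.23, 0.44 and 0.40 in APdE9 and at 1.41, 1.22 and 0.72 in WT, and these groups overlapped. The log2 difference was 1.13 ± 0.22 in adult cells (limma adjusted p = 0.00336) and -0.43 ± 0.22 in neonatal cells (limma adjusted p = 0.413).

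Prom1 lay at -1.48, -1.55 and -1.86 in adult APdE9 and at -1.88, -1.67 and -2.11 in adult WT. It lay at 1.65, 1.48 and 1.51 in neonatal APdE9 and at 1.66, 1.76 and 1.50 in neonatal WT. The section groups overlapped at both ages, and the log2 differences of 0.26 ± 0.13 in adult and -0.09 ± 0.13 in neonatal cells did not pass the test (limma adjusted p = 0.202 and 0.87).

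**Figure D2:**
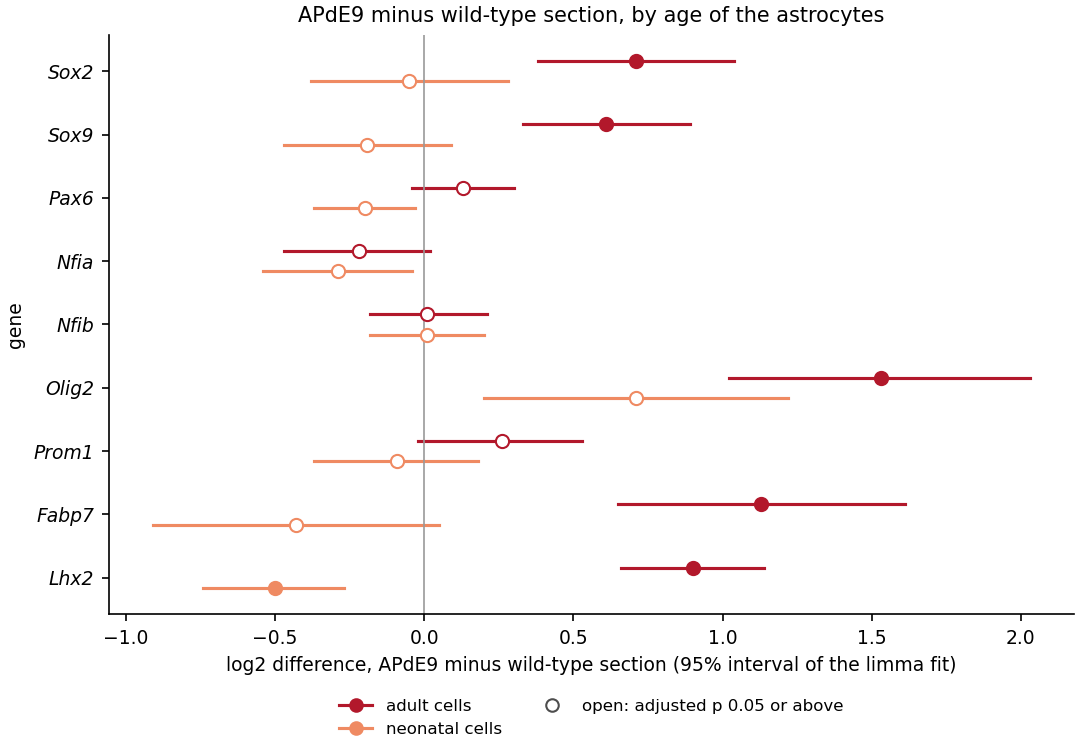
APdE9 minus WT section difference of each gene (x axis, log2; points are limma estimates, lines 95% intervals) in adult and in neonatal cells. In adult cells 5 genes lie above 0 and passed the test, and in neonatal cells Lhx2 alone passed it, below 0.

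The promoters of 4 of the 5 genes that were higher in adult APdE9 cells are shown so that these genes can be compared in sequence. Each runs over 300 bases, 250 before and 50 after the RefSeq gene start (GRCm38.p6, plus strand), and was read from RefSeq. The regions are chr3:34649745-34650044 for Sox2, chr16:91225300-91225599 for Olig2, chr10:57784673-57784972 for Fabp7 and chr2:38339031-38339330 for the more upstream of the Lhx2 starts. Capitals mark letters that match a searched motif on either strand: the SOX cores ACAATG and ACAAAG, the nuclear factor I half-site TTGGC, the E-box CAGCTG, the homeodomain core TAATTA and the RBPJ core TGGGAA.
Sox2: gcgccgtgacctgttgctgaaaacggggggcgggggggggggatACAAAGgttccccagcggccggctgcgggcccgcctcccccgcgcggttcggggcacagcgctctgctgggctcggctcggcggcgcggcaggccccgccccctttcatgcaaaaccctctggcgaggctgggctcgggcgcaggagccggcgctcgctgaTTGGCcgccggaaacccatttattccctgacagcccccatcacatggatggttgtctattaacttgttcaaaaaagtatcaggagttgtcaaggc
Olig2: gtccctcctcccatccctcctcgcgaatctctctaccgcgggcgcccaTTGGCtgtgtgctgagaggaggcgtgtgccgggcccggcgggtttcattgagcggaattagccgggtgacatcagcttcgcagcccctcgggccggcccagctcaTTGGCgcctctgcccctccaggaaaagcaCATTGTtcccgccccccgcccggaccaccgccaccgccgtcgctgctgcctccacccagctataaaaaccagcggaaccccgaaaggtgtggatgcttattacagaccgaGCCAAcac
Fabp7: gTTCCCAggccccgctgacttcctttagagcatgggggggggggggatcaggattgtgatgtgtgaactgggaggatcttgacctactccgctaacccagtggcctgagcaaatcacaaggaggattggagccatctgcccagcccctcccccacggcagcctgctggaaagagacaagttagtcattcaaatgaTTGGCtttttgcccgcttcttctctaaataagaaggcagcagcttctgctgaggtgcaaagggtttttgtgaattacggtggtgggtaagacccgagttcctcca
Lhx2: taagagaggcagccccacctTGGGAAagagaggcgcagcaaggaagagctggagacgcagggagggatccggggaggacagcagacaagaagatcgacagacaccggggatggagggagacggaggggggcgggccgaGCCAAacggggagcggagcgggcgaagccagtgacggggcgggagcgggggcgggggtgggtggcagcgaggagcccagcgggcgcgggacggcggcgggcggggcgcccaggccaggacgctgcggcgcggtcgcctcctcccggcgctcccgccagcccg

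Each of these 4 windows held at least 1 copy of TTGGC, and Olig2 held 3. Of the 10 promoters listed for members, 5 held it, among them a Prom1 promoter but not the other Lhx2 window. So did 46.7% of all 32851 mouse promoters of this length. ACAAAG, in 18.7% of all promoters, was present in 2 of the 10 (Sox2 and Pax6), and ACAATG, in 12.6%, in 2 of the 10 (Olig2 and Nfia). TGGGAA, in 25.6% of all promoters, was present in 4 of the 10, those of Fabp7, both Lhx2 windows and a Prom1 promoter. CAGCTG (16.3%) and TAATTA (5.29%) matched none of those 10, which belong to the 7 members that had an entry, and no matches overlapped. These matches are letters in a window and were not tested as binding sites.

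Whether the section difference itself depended on the age of the cells was tested as an interaction, the section difference in adult cells minus that in neonatal cells. It was positive and passed the test for 4 of the 9 genes, where 5.19% of all genes passed in this direction and 4.88% in the other. The interaction was 1.56 ± 0.31 for Fabp7 (limma adjusted p = 0.00755), 1.40 ± 0.15 for Lhx2 (limma adjusted p = 0.000157), 0.80 ± 0.18 for Sox9 (limma adjusted p = 0.0156) and 0.76 ± 0.21 for Sox2 (limma adjusted p = 0.0441). Lhx2 is the gene for which the section differences of both ages passed, in opposite directions. Olig2 had positive section differences at both ages, and its interaction of 0.81 ± 0.33 did not pass (limma adjusted p = 0.158). Pax6 (0.33 ± 0.11), Prom1 (0.35 ± 0.18), Nfia (0.06) and Nfib (0.00) did not pass either (limma adjusted p = 0.083, 0.279, 0.871 and 0.997).

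The interaction of Sox2 lay close to the threshold. It was lost without neonatal WT replicate 2 or 3 (limma adjusted p = 0.0853 and 0.0859), neonatal APdE9 replicate 1, 2 or 3 (0.0545, 0.102 and 0.0761), adult WT replicate 1, 2 or 3 (0.0787, 0.0999 and 0.0719) or adult APdE9 replicate 2 (0.0504), with log2 values of 0.68 to 0.84. It was lost too with quantile normalization (0.57, limma adjusted p = 0.108) and with arrays centred on their median (0.73, limma adjusted p = 0.0641). That of Olig2 passed without the low neonatal WT replicate 1 (1.17, limma adjusted p = 0.00179), and that of Pax6 without neonatal APdE9 replicate 1 (0.39, limma adjusted p = 0.0432). That of Sox9 was lost where its single most variable probe set stood for the gene (0.97, limma adjusted p = 0.0674).

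The age comparisons gave the widest differences. On wild-type sections, 8 of the 9 genes were lower in adult than in neonatal astrocytes and none was higher, where 15.2% of all genes were lower and 14.9% higher. On APdE9 sections 6 were lower and none was higher, where 11.9% of all genes were lower and 11.7% higher. The median log2 difference over the 9 genes was -1.13 on wild-type and -0.54 on APdE9 sections, beside 0.01 and 0.05 over all genes. The comparison on WT sections shares the adult WT arrays with the adult section comparison.

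**Figure D3:**
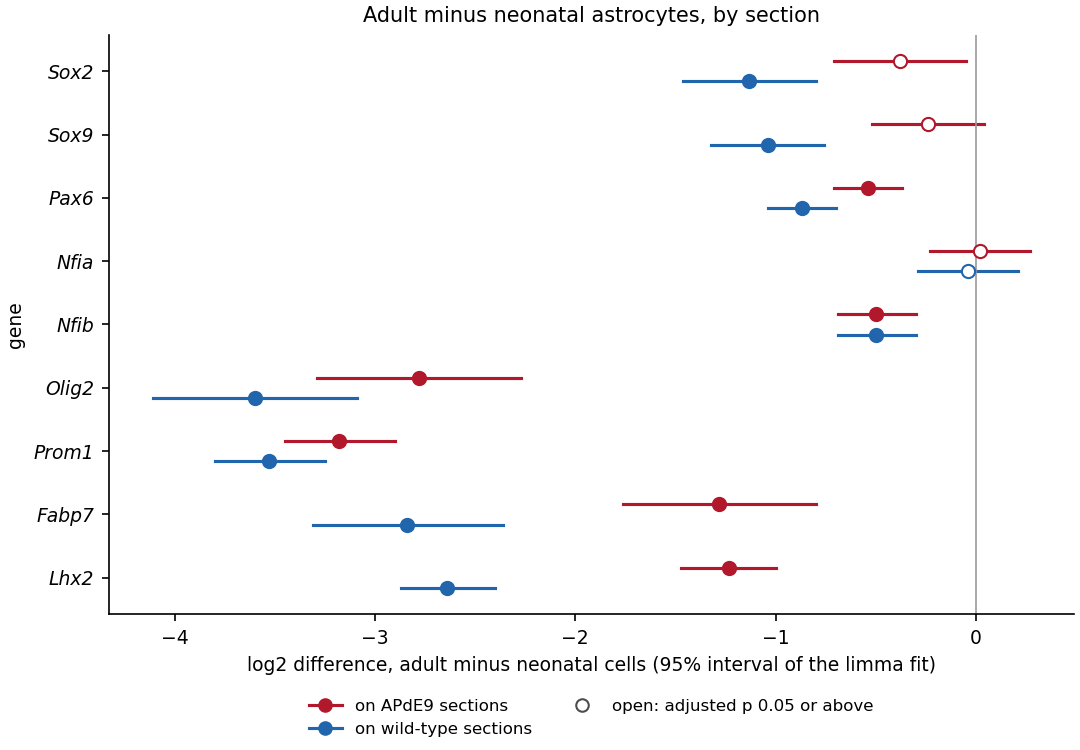
Adult minus neonatal difference of each gene (x axis, log2; points are limma estimates, lines 95% intervals) on APdE9 and on WT sections. Olig2 and Prom1 lie furthest below 0 on both kinds of section, and Nfia lies at 0 on both.

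Olig2 was 12.1-fold lower in adult than in neonatal cells on WT sections (log2 -3.60 ± 0.23, limma adjusted p = 1.49e-07) and 6.89-fold lower on APdE9 sections (log2 -2.78 ± 0.23, limma adjusted p = 2.06e-06). Prom1 was 11.5-fold lower on WT sections (log2 -3.53 ± 0.13, limma adjusted p = 8.38e-10) and 9.04-fold lower on APdE9 sections (log2 -3.18 ± 0.13, limma adjusted p = 3.22e-09). For both genes every adult array lay below every neonatal array.

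Fabp7 was 7.14-fold lower in adult than in neonatal cells on WT sections (log2 -2.84 ± 0.22, limma adjusted p = 7.12e-07) and 2.43-fold lower on APdE9 sections (log2 -1.28 ± 0.22, limma adjusted p = 0.0009). Lhx2 was 6.22-fold lower on WT sections (log2 -2.64 ± 0.11, limma adjusted p = 2.54e-09) and 2.35-fold lower on APdE9 sections (log2 -1.23 ± 0.11, limma adjusted p = 3.12e-06). The adult and neonatal arrays of these genes did not overlap on either kind of section.

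The SOX genes were lower in adult cells on WT sections, Sox2 2.19-fold (limma adjusted p = 9.4e-05) and Sox9 2.05-fold (limma adjusted p = 4.89e-05). On APdE9 sections the log2 age differences were -0.38 ± 0.15 for Sox2 and -0.24 ± 0.13 for Sox9 and did not pass the test (limma adjusted p = 0.0984 and 0.224). The Sox2 difference there did pass without adult APdE9 replicate 1, its highest adult array (-0.59, limma adjusted p = 0.00173). The 2 age comparisons of a gene differ by the interaction given above, which passed for Sox2 and Sox9.

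Pax6 was lower in adult cells on WT sections by a log2 difference of -0.87 ± 0.08 (limma adjusted p = 2.6e-06) and on APdE9 sections by -0.54 ± 0.08 (limma adjusted p = 0.000222). Nfib was lower by the same -0.50 ± 0.09 on both kinds of section (limma adjusted p = 0.000925 on WT and 0.00126 on APdE9). Nfia differed by -0.04 ± 0.11 on WT and 0.02 ± 0.11 on APdE9 sections and did not pass the test (limma adjusted p = 0.848 and 0.921).

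The genes with several probe sets did not always speak with a single value. Of the 5 Pax6 probe sets, 1419271_at carried most of the age difference, at -2.94 on WT and -2.16 on APdE9 sections. The other 4 lay between -0.86 and -0.10 on WT sections and between -0.39 and -0.01 on APdE9 sections. On WT sections 2 of the 5 passed as lower, where 10.8% of all probe sets were lower. On APdE9 sections 1419271_at alone passed, where 8.39% of all probe sets were lower. Of the 6 Nfia probe sets, 1421163_a_at was lower on APdE9 than on WT sections in adult cells (-1.07, limma adjusted p over probe sets = 0.00869) and higher in adult than in neonatal cells on WT sections (0.96, limma adjusted p = 0.00875). Another Nfia probe set, 1456087_at, was lower in adult than in neonatal cells on WT sections (-0.58, limma adjusted p = 0.00746). The near-zero age difference of Nfia is thus a mean over probe sets of opposite sign. Of the 7 Nfib probe sets, 4 were lower in adult cells on WT sections, where 10.8% of all probe sets were lower, and 5 on APdE9 sections, where 8.39% were. On APdE9 sections the 7 spanned -0.84 to 0.31.

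**Figure D4:**
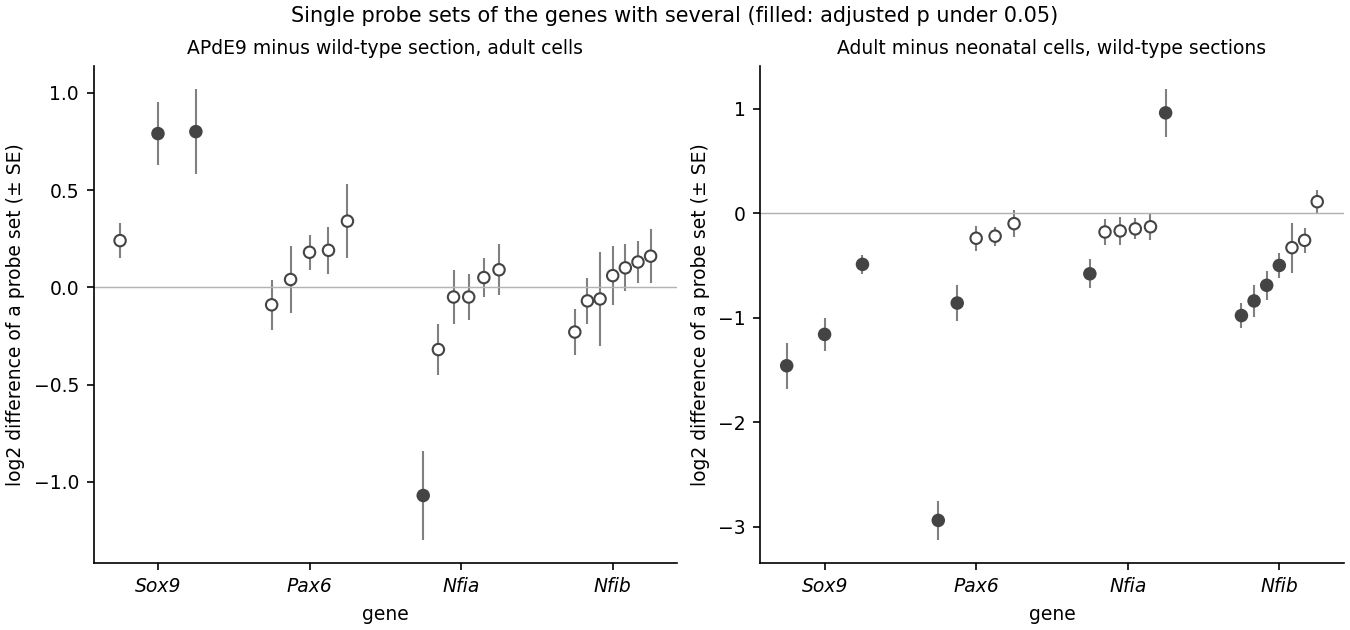
Log2 differences (y axis, ± SE of the limma fit) of the single probe sets of Sox9, Pax6, Nfia and Nfib (points), for APdE9 minus WT sections in adult cells (left) and adult minus neonatal cells on WT sections (right), with those past the adjusted threshold filled. In the right panel a Pax6 probe set stands alone at -2.94 and an Nfia probe set at 0.96.

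Genes of related families and roles were read beside the 9 members from 8 lists. Of 13 other SOX genes, 4 were higher and none lower in adult cells on APdE9 sections, and their list median was 0.14, beside 0.05 over all genes. These were Sox21 (0.87), Sox6 (0.63), Sox1 (0.45) and Sox5 (0.41), with limma adjusted p between 0.00143 and 0.00382. Sox21 and Sox1 belong to neural progenitors, and Sox5 and Sox6 to glial and other progenitors. On WT sections 5 of the 13 were lower in adult than in neonatal cells and none was higher, led by Sox6 (-3.03, limma adjusted p = 6.78e-10). Of the other nuclear factor I genes, 2 were measured, and Nfix was lower on APdE9 sections in adult cells (-0.49, limma adjusted p = 0.000647).

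Of 13 other homeobox and paired genes of forebrain progenitors, 3 were higher and none lower in adult cells on APdE9 sections, with a list median of 0.14. They were Emx2 (1.18, limma adjusted p = 7.89e-05), a gene of the cortical primordium, Otx2 (0.85, limma adjusted p = 0.000641), a forebrain patterning gene, and Pou3f3 (0.56, limma adjusted p = 0.000218). On WT sections 8 of the 13 were lower in adult than in neonatal cells, among them Pou3f4 (-3.47) and Otx2 (-2.95), with limma adjusted p of 1.94e-06 and 4.22e-09. Of these 13 genes, 5 were lower without neonatal WT replicate 2, adult WT replicate 2 or adult WT replicate 3. On APdE9 sections 6 were lower in adult than in neonatal cells and 1, Emx2, was higher (1.59, limma adjusted p = 2.43e-06).

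Of 11 Hes, Id and proneural basic helix-loop-helix genes, Olig1 alone passed in adult cells on APdE9 sections. Olig1, the chromosomal neighbour and close relative of Olig2, was higher by 1.30 ± 0.09 (limma adjusted p = 2.38e-06). In neonatal cells it was lower on APdE9 sections (-0.43, limma adjusted p = 0.0246), where the difference of Olig2 was 0.71. That neonatal call was lost without neonatal WT replicate 2 or 3 (limma adjusted p = 0.0945 and 0.0819), without neonatal APdE9 replicate 1 or 2 (0.0972 and 0.092) and with quantile normalization (0.134). Its interaction with age was 1.73 (limma adjusted p = 1.28e-05), and it was lower in adult than in neonatal cells by -4.00 on WT and -2.27 on APdE9 sections (limma adjusted p = 2.09e-11 and 4.38e-09). On WT sections 6 of the 11 were lower in adult cells, including Hes5 (-3.97, limma adjusted p = 0.000133), a Notch target, and Id4 (-2.18, limma adjusted p = 0.00237).

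Of 19 other radial glia and neural stem cell genes, 3 were higher and 2 lower in adult cells on APdE9 sections, with a list median of 0.07 (1 lower without adult WT replicate 1 or 2 or adult APdE9 replicate 2 or 3). Ptprz1 (0.61, limma adjusted p = 0.0006), a receptor phosphatase of radial glia, and Cd24a (0.54, limma adjusted p = 0.000638) were higher. Tnc, the extracellular matrix protein tenascin C, was lower (-1.97, limma adjusted p = 0.00479). In adult compared with neonatal cells 11 of the 19 were lower and 1 higher on WT sections, and the same counts held on APdE9 sections. Slc1a3, the glutamate transporter GLAST, was among the lower ones (-3.22 on WT and -2.55 on APdE9, limma adjusted p = 1.56e-10 and 1.77e-09).

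Of 16 other astrocyte transcription factors, 5 were higher and 1 lower in adult cells on APdE9 sections, among them Sall1 (0.68, limma adjusted p = 0.000856) and Rfx4 (0.59, limma adjusted p = 0.000237). Of 17 genes of differentiated astrocytes, which include Slc1a3, 6 were higher and 5 lower in adult cells on APdE9 sections, and none was higher and 8 were lower in neonatal cells. With quantile normalization 3 of the 17 were higher in adult cells. Gfap, the intermediate filament of astrocytes, and Aqp4, the water channel of their endfeet, were lower in neonatal APdE9 cells (-1.02 and -0.74, limma adjusted p = 0.000608 and 0.000516). On WT sections 13 of the 17 were lower and 2 higher in adult than in neonatal cells. The lower ones included Aldoc (-4.97), Gfap (-4.24) and Aqp4 (-3.73), with limma adjusted p of 1.5e-12, 7.05e-11 and 1.25e-11. On the same WT-section arrays, 8 of the 9 members were also lower in adult than in neonatal cells.

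Of 17 proliferation genes, none was higher and 12 were lower in adult cells on APdE9 sections, with a list median of -1.06, beside 0.05 over all genes. Mki67, which marks cycling cells, was lower by -2.46 (limma adjusted p = 5.98e-06). The mean over these genes lay between -0.68 and -0.49 on the adult APdE9 arrays and between 0.20 and 0.63 on the adult WT arrays. Its part in the higher Olig2, Sox2, Sox9, Lhx2 and Fabp7 was not tested.

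Marker lists of other cells that the cultures or sections could hold also moved. Of 14 microglial markers, 5 were higher and 1 lower in adult cells on APdE9 sections, but 3 were higher without adult WT replicate 2 or adult APdE9 replicate 2, and 2 with quantile normalization. The mean over the list was -1.53 to -1.44 in adult APdE9, -2.26 to -2.0 in adult WT, 1.93 to 2.06 in neonatal APdE9 and 1.36 to 1.91 in neonatal WT. In adult compared with neonatal cells 13 of the 14 were lower on both kinds of section, with list medians of -3.74 on WT and -3.62 on APdE9 sections. On WT sections 1 was higher, and on APdE9 sections none was. The part of these cells in the age differences of the members was not tested.

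Of 13 fibroblast and vascular markers, 1 was higher and 5 were lower in adult cells on APdE9 sections, and the list mean was -0.00 to 0.21 in adult APdE9, against 0.67 to 0.82 in adult WT. On WT sections 7 of the 13 were higher in adult than in neonatal cells and none was lower, led by Col1a1, a fibroblast collagen (4.06, limma adjusted p = 2.02e-09). On APdE9 sections 4 were higher and 2 lower in adult than in neonatal cells, with a list median of 0.05, beside 0.05 over all genes. Col1a1 was higher there and Tagln lower (3.08 and -0.99, limma adjusted p = 3.4e-08 and 0.000275). The part of such cells in the lower progenitor genes of adult WT cells was not tested.

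Of 13 oligodendrocyte lineage markers, which share Olig1 with the helix-loop-helix list and Sox10 with the SOX list, 5 were higher and 1 lower in adult cells on APdE9 sections. Mbp, a myelin protein, was higher there by 1.78 (limma adjusted p = 5.56e-05) and in neonatal cells by 1.80 (limma adjusted p = 0.00053). Without adult WT replicate 1 or 2, or adult APdE9 replicate 2 or 3, 3 of the 13 were higher in adult cells. In neonatal cells 2 of the 13 were higher and 2 lower on APdE9 sections, the lower ones being Cnp (-0.59, limma adjusted p = 0.00191) and Olig1. On WT sections 3 of the 13 were higher and 3 lower in adult than in neonatal cells. Cnp, a myelin enzyme, was lower (-1.44, limma adjusted p = 3.25e-08), as were Olig1 and Olig2. Cspg4 and Pdgfra, which mark oligodendrocyte precursors, were higher (1.59 and 1.18, limma adjusted p = 9.07e-05 and 2.61e-05). The list mean was 0.04 to 0.17 in adult APdE9, -0.28 to -0.25 in adult WT, 0.10 in each neonatal APdE9 array and -0.03 to 0.00 in neonatal WT. The part of such cells in the section difference of Olig2 was not tested.

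Of 12 ependymal and choroid plexus markers, none passed in adult cells between the sections, by limma adjusted or unadjusted p, and 9 were lower in adult than in neonatal cells on WT sections. In neonatal cells, where Lhx2 was lower on APdE9 sections, 5 of the 12 were lower there too and none was higher, with a list median of -0.57 (Rsph4a -1.46, limma adjusted p = 0.0022). That count was 1 without neonatal WT replicate 2, 2 without neonatal APdE9 replicate 1 or 2 or adult APdE9 replicate 2, and 3 without neonatal WT replicate 3, adult WT replicate 2 or adult APdE9 replicate 3. The list mean was 0.21 to 0.37 in neonatal APdE9 and 0.59 to 0.99 in neonatal WT, and its part in the neonatal Lhx2 difference was not tested. Prominin 1 is also present on ependymal cells, and the part of such cells in its age difference was not tested. Of 13 neuronal markers, 2 were lower in adult cells on APdE9 sections and none was higher, with a list median of 0.00 (1 lower without adult WT replicate 2 or adult APdE9 replicate 2). Only centred values are given, so it cannot be said which markers were near background.

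**Figure D5:**
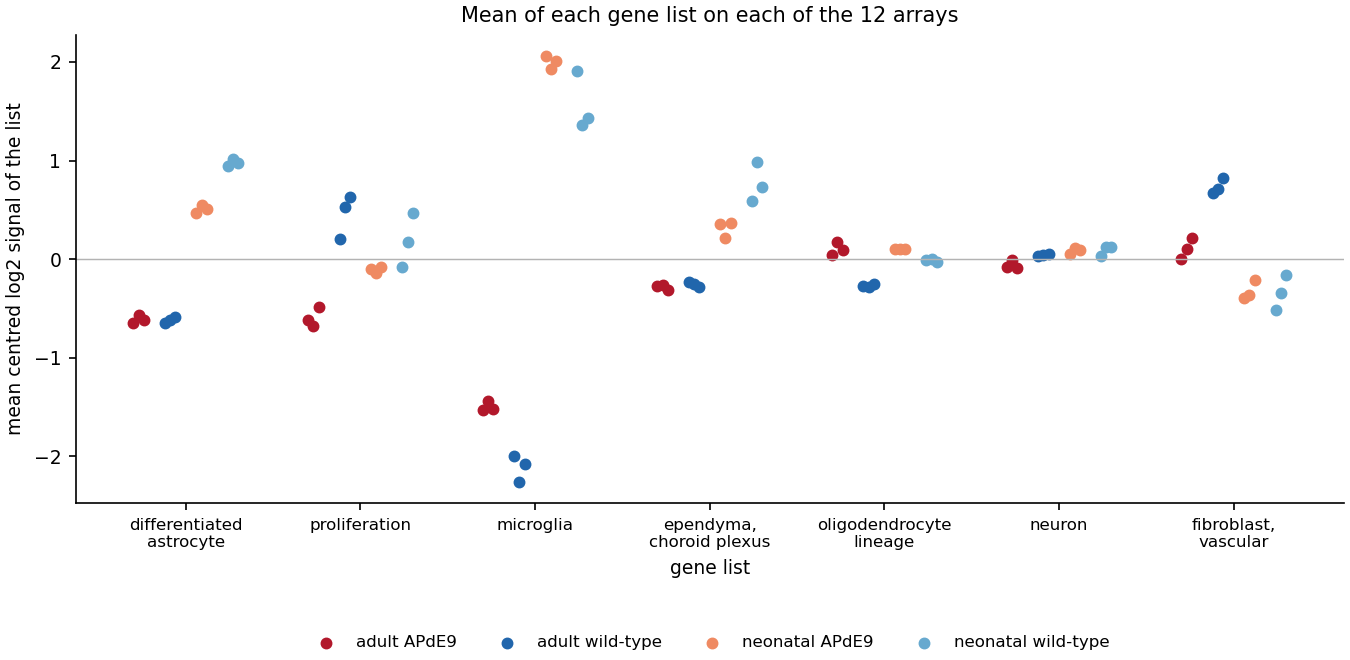
Mean centred log2 value of the differentiated astrocyte, proliferation and 5 marker lists on each of the 12 arrays (y axis, log2 units; points are arrays), with groups ordered adult APdE9, adult WT, neonatal APdE9 and neonatal WT. The microglial list lies near 2 in neonatal APdE9 cells and below -1 in all adult cells, and the fibroblast and vascular list is highest in adult WT cells.

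For the 6 members whose group means spanned at least 1 log2 unit, the 3 genes with the most similar profile were found by the root mean square (RMS) difference over the 12 arrays, in log2 units. Sox2 was closest to Sox21 (0.12), then Pcdh1 (0.20) and Cytip (0.21), and Sox9 to Tapbp (0.13), Akap6 (0.13) and Sgk3 (0.14). Olig2, which had the widest span of group means (4.31), had Pcp4 (0.40), Ifi209 (0.47) and Olig1 (0.55) as its nearest. The RMS difference was not scaled to the span, so its size cannot be compared between members. Fabp7 was closest to Sytl2 (0.15), Rnf182 (0.20) and Eva1a (0.24), Lhx2 to Olfm2, Acsbg1 and Pcsk6 (0.17 each), and Prom1 to Rlbp1 (0.27), Rnf128 (0.29) and Kcne1l (0.30). Pax6, Nfia and Nfib spanned less than 1 log2 unit and were not matched. The Pax6 span of 0.87 is that of a mean over 5 probe sets. One of them, 1419271_at, differed by -2.94 between adult and neonatal cells on WT sections.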

How the data were processed

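Expression was measured on 12 whole-genome arrays, 3 per group. The authors deposited RMA values (per the submitters' processing notes), read as log2 expression in all 12 columns. In 4 of the deposited columns, 6 values were above 100 in size, which no log2 value reaches; as deposited, these columns could be recorded only as a score. The 6 values, none of them in a member, were set to missing, and all 12 columns were then fitted as log2. The base of the log is not given in the sources used here and was taken as 2, as RMA gives it. Of 45101 probe sets, 64 controls were left out; 34945 had a single gene symbol, 932 several and 9160 none, and 34741 of the single-gene ones matched a RefSeq gene. Probe sets of a gene were averaged, and limma 3.58.1 (R 4.3.3) fitted 4 group means to all 12 arrays with Benjamini-Hochberg adjustment over 18193 genes. The fit was tested on simulated data. Members and lists were chosen with earlier results of these data known. Genes of lists were named as at most 4 per list and comparison with the largest change past the threshold.

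Same-numbered arrays counted as paired where the correlation of their deviations was over 0.1 in each of 3 pairs. That held for the neonatal section comparison (0.305, 0.147 and 0.519) and for the age comparison on APdE9 sections (0.46, 0.206 and 0.473). It did not hold for the adult section comparison (0.348, -0.147 and 0.496) or for the age comparison on WT sections (0.404, 0.025 and 0.405). The labels state no pairing, and the correlations are for same-numbered arrays only, so they cannot establish that the arrays were paired. Tried alternatives were quantile normalization, centring of arrays, the most variable probe set, an SD filter, array weights, a robust variance, fits on the arrays compared, the replicate block, a stricter threshold and leaving out each array. The number of arrays limits the precision.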

Additional observations from a re-analysis of the deposited data

Results flagged for a closer look

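The section difference (APdE9 minus WT) differed between adult and neonatal cells for 4 of the 9 genes, as tested by the interaction term of limma. The log2 interaction was 0.76 for Sox2, 0.80 for Sox9, 1.56 for Fabp7 and 1.40 for Lhx2, with adjusted p of 0.0441, 0.0156, 0.00755 and 0.000157. For Lhx2 the adult and neonatal differences both passed the test with opposite signs (0.90 and -0.50). The neonatal Lhx2 call was lost under 6 of 20 alternatives (limma adjusted p up to 0.0966). The interaction of Sox2 was lost under 11 of 19 alternatives (limma adjusted p up to 0.108) and that of Sox9 under 1. Groups of 3 arrays are too small for a test of single arrays that stand apart.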

How the results depend on the processing

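The 5 members higher in adult APdE9 cells and the 8 lower in adult than in neonatal cells on WT sections passed under each of the alternatives run at the threshold of 0.05. Of 891 single-member alternatives, 835 kept direction and side of the threshold, 18 lost and 11 gained a call, and 27 turned sign, all of Nfia, Nfib, Prom1 or Sox2 differences near 0 except as given. For the adult section difference, Nfib turned to -0.01 with quantile normalization, -0.02 with centred arrays and -0.02 to 0.04 over the fits without 1 array. Prom1 turned to -0.08 with quantile normalization. The microglial marker C1qc, called higher by 1.01 in the main fit (limma adjusted p = 0.00584), turned to -0.06 with quantile normalization (limma adjusted p = 0.9). For the neonatal section difference, the fits without 1 array ran from -0.11 to 0.03 for Sox2 and from -0.08 to 0.09 for Nfib. For the interaction, Nfia turned to -1.02 with its most variable probe set and ran from -0.08 to 0.20 without 1 array, and Nfib turned to -0.07 with quantile normalization, -0.03 with centred arrays, -0.00 with its most variable probe set and ran from -0.08 to 0.09 without 1 array. For age on WT sections, Nfia turned to 0.96 with its most variable probe set, which passed (limma adjusted p = 0.00679), and 0.01 without 1 array; on APdE9 sections to -0.01 with centred arrays, -0.02 with array weights, -0.06 with that probe set and it ran from -0.12 to 0.16 without 1 array. The cause was not tested. The replicate block gave 5, 2, 4, 8 and 6 members in the adult section, neonatal section, interaction, WT age and APdE9 age comparisons; outside the neonatal one, where Olig2 joined Lhx2, it changed no member's call. Neonatal member calls numbered 0 with quantile normalization or at an adjusted p under 0.01, 3 with array weights and 0 to 1 without 1 array, and interaction calls 2 at 0.01 and 3 to 5 without 1 array. Over all genes, calls at 0.01 numbered 1844 (adult section), 248 (neonatal section), 818 (interaction) and 2850 (age on APdE9). Array weights gave 2160 neonatal and 3427 interaction calls, and the neonatal arrays alone 272. Leaving out 1 array gave 2174 to 3382, 263 to 761, 1208 to 1811, 4426 to 5499 and 3488 to 4386 calls, and 5 to 5, 0 to 1, 3 to 5, 8 to 8 and 6 to 7 members, in the same order of comparisons; the neonatal section count was 263, 411 and 436 without neonatal WT replicate 2, neonatal APdE9 replicate 1 and neonatal APdE9 replicate 2, and the interaction count 1208 and 1218 without neonatal WT replicate 2 and adult WT replicate 2. The alternatives for lists and list genes were chosen after seeing the data.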
